A study of Mus musculus with 3 samples.

Results

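Among single cells isolated as monocytes and macrophages from healing mouse skin wounds, 216 of 2702 barcodes were chosen for high joint transcript levels of Axl, Pdgfb, Tmem119, F11r, Zmynd15 and Pdgfa. The choice used a score, the mean over the 6 genes of the natural log of 1 plus the unique molecular identifiers (UMIs, single counted transcripts) per 10000 of the barcode, and took the top 8% of barcodes pooled over 3 libraries. Barcodes entered with at least 200 genes, at least 2000 UMIs and under 10% of UMIs from mitochondrial genes. The lowest score of a member was 0.493 and the highest outside was 0.492, so the cut fell in a continuous range: 44 members scored under 0.55 and 62 barcodes outside scored over 0.45. The score therefore marks a range of cells and not a sharply bounded type.

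Wound macrophages take up dead cells and debris, and release growth factors that act on fibroblasts and vessel walls. Axl is a receptor tyrosine kinase that binds the ligand Gas6 on dying cells and dampens innate signalling. Pdgfb and Pdgfa encode the B and A chains of platelet-derived growth factor, a mitogen for pericytes and fibroblasts, Tmem119 encodes a membrane protein used as a marker of brain microglia, and F11r encodes the junctional adhesion molecule JAM-A. Zmynd15 encodes a zinc finger protein that, in mouse testis, acts as a transcriptional repressor.

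The study profiled male C57BL6/J mice, an inbred strain, with no further treatment or allele given, at day 3, day 6 and day 10 after wounding. Each day is 1 droplet library from 2 pooled mice, so days differ by library and mice as well as by time, and no test between days could be made. The members were 16 barcodes at day 3, 51 at day 6 and 149 at day 10. They were set against the other barcodes with at least 1 UMI of C1qa, a chain of complement C1q that tissue macrophages make in quantity, of which there were 168, 249 and 595. Of these others, 46, 35 and 106 had only 1 or 2 C1qa UMIs. Members held a median of 8583, 12338 and 8548 UMIs per barcode at days 3, 6 and 10, against 9826, 10545 and 8057 in the other C1qa-positive barcodes. No kept barcode sequence occurred in more than 1 library, and Scrublet marked 1 member as a doublet.

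Members made up 1.82% of kept barcodes at day 3, 9.26% at day 6 and 11.7% at day 10. The exact binomial (Clopper-Pearson) 95% intervals, which cover counting error only, ran from 1.04% to 2.94%, from 6.97% to 11.99% and from 10.0% to 13.6%. The day 3 interval lay below the other two, while those of day 6 and day 10 overlapped. With every barcode thinned to 2000 UMIs before scoring, the shares were 2.84%, 11.98% and 9.83%, so day 6 and day 10 changed places. Thinned scoring shared 118 of the 216 members (54.6%) with the full-depth choice.

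**Figure D1:**
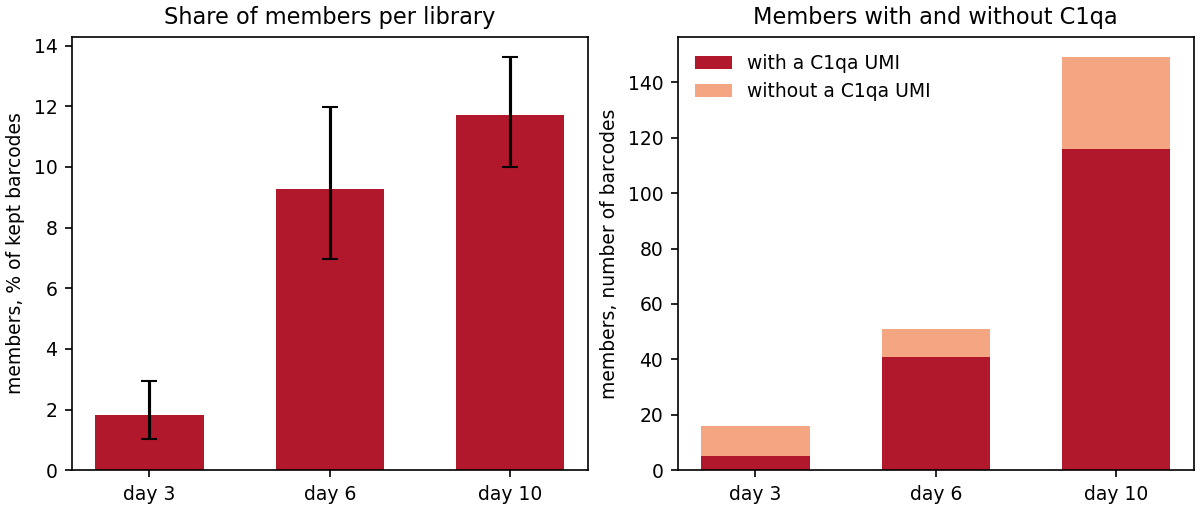
Left, members as a percentage of kept barcodes in each library, with exact binomial 95% intervals. Right, number of members per library with and without a C1qa UMI: 5 of 16 members at day 3 had one, against 41 of 51 at day 6 and 116 of 149 at day 10.

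Judged by C1qa alone, the macrophage label held for most members at days 6 and 10 and for few at day 3. A C1qa UMI was found in 41 of 51 members (80.4%) at day 6 and 116 of 149 (77.9%) at day 10, but in 5 of 16 (31.3%) at day 3. Of other macrophage genes, Csf1r and Cd68 were each found in 10 of the 16 day 3 members, Adgre1 in 6, Mrc1 in 5 and Mertk in 2. For scale, 2 of 36 barcodes outside with at least 3 UMIs of Ccr7, a marker of migratory dendritic cells, had a C1qa UMI (5.56%, median 16180 UMIs per barcode), as did 97 of 486 with at least 3 UMIs of the monocyte gene Ly6c2 (19.96%, median 11627 UMIs). The summed level of 11 dendritic cell markers was 1349, 310 and 78.0 CPM (UMIs of the gene per 1000000 UMIs of the summed barcodes) in members at days 3, 6 and 10, against 62.5, 93.6 and 64.6 CPM in the others. Its excess sat in few barcodes: at least 2 of these markers were seen in 10 of 54 members without C1qa, 4 of 162 members with it and 35 of 1012 others. Clec9a and Itgae, also on that list, were at 0 UMIs in members. A list of 19 macrophage identity genes summed to 24780, 29510 and 35926 CPM in members at days 3, 6 and 10. In the others it summed to 29977, 39859 and 40909 CPM. Of other cell classes, 7 of 8 T cell markers, all 7 melanocyte and Schwann cell markers and 7 of 11 neutrophil markers were at 0 UMIs in members. The Langerhans cell markers Cd207 and Epcam summed to 6.85, 90.4 and 17.1 CPM in members, against 0, 53.1 and 3.20 CPM in the others. All of the member UMIs lay in members with C1qa. Few barcodes carried them: at day 6, 4 members had Cd207 and 2 had Epcam, and 1 member held all 20 Epcam UMIs at day 10. The day 3 value was 1 Epcam UMI. In the others at day 6, 1 barcode held all 95 Cd207 UMIs and 1 held all 64 Epcam UMIs. The part of such cells in the class II difference below was not tested. The day 3 members and the members without C1qa were therefore left out in turn, and the values without them stand beside the gene lists and named genes they bear on.

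The 6 score genes were carried by different members in different combinations. Of the members, 48 had UMIs of 2 of the 6 genes, 78 of 3, 56 of 4, 27 of 5 and 6 of all 6, while 1 had a single one. Since these values chose the members, they are a description. Axl (chr7:25757273-25788705, minus strand, GRCm38) stood at 274, 206 and 84.7 CPM in members at days 3, 6 and 10, against 32.4, 42.4 and 17.5 CPM in the others. Axl was thus lower at day 10 than at day 6 in both populations, by 2.44-fold in members and 2.42-fold in the others. The choice shaped both levels, so this too is a description.

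Pdgfb (chr15:79995874-80014977, minus strand) stood at 212, 187 and 164 CPM in members, against 12.1, 34.1 and 35.0 CPM in the others. Pdgfa (chr5:138976014-138997370, minus strand) stood at 185, 139 and 164 CPM in members, against 10.4, 26.4 and 53.3 CPM in the others. The Pdgfa level of the others was higher at each later day. The choice shaped the levels of both ligand genes in both populations, so no contrast between days is drawn from them. Tmem119 (chr5:113793729-113800516, minus strand) stood at 27.4, 154 and 177 CPM in members, against 5.78, 26.1 and 52.2 CPM in the others. Only 4 Tmem119 UMIs were counted in the day 3 members. F11r (chr1:171437535-171464603, plus strand) stood at 192, 145 and 122 CPM in members, against 16.2, 23.7 and 25.8 CPM in the others. Zmynd15 (chr11:70459433-70466202, plus strand) stood at 110, 139 and 161 CPM in members, against 2.89, 21.7 and 29.4 CPM in the others.

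**Figure D2:**
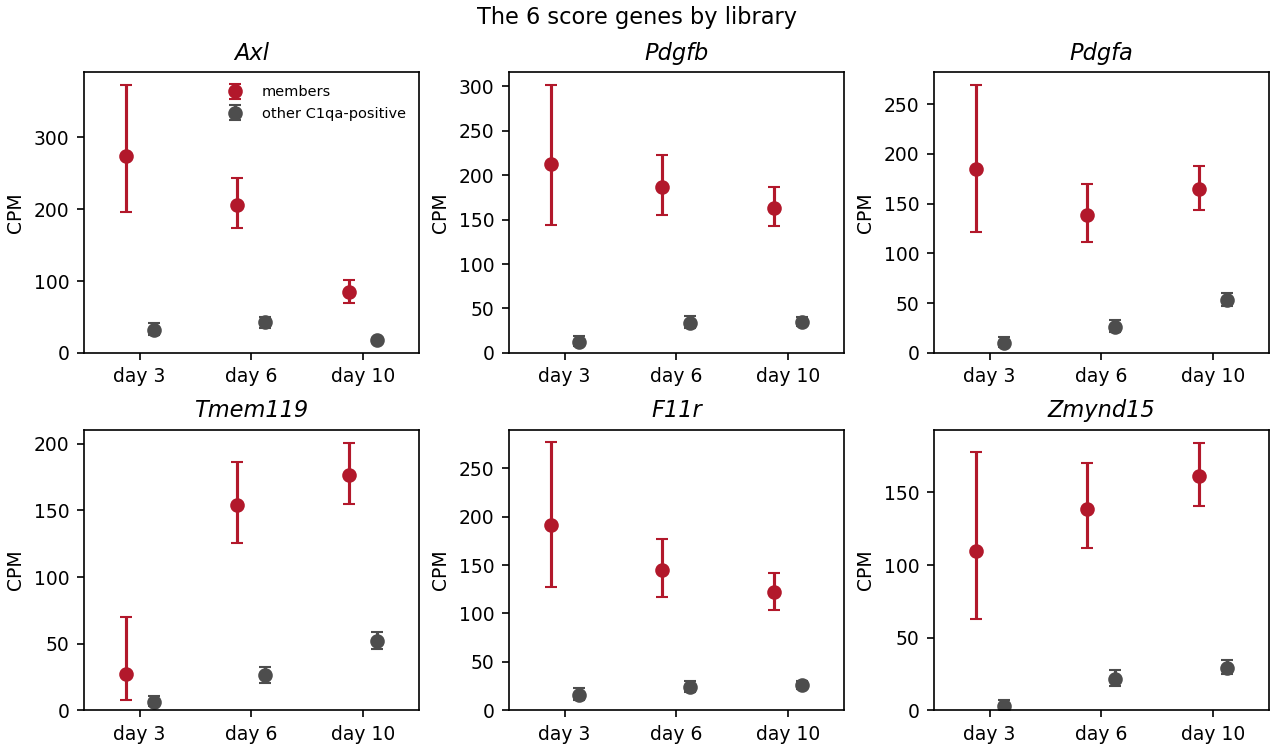
Level in CPM of each score gene by library in members (red) and other C1qa-positive barcodes (grey), with exact Poisson 95% intervals. Axl in members is lowest at day 10 (84.7 CPM) while Tmem119 is low at day 3 (27.4 CPM) and high at day 10 (177 CPM); the gap between populations follows from the choice of members.

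To see how far the 6 genes occur in the same barcodes, each gene was left out in turn and 216 barcodes were chosen by the other 5. Axl was then 1.82-fold higher in the chosen barcodes than in the other C1qa-positive ones (counting interval 1.497 to 2.21), where the choice by all 6 genes gave 4.91-fold. F11r gave 2.55-fold (2.10 to 3.08), Pdgfa 1.47-fold (1.23 to 1.76), Pdgfb 2.05-fold, Zmynd15 2.14-fold and Tmem119 1.88-fold over the pooled libraries. By library the ratios of the 6 genes ran from 2.80 to 7.39 at day 3, from 1.78 to 4.07 at day 6 and from 1.21 to 1.59 at day 10. At day 10, which held most members, the intervals of Zmynd15 (0.955 to 1.62) and Pdgfa (0.970 to 1.497) included 1 and that of Axl began at 1.003. All 6 pooled ratios were under those with the gene in the score, which were 5.68 for F11r, 4.16 for Pdgfa, 5.65 for Pdgfb, 6.69 for Zmynd15 and 4.39 for Tmem119.

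Barcodes were also picked in the same way, as the top 8% of all kept barcodes, by other macrophage genes. Of the members, 18 (8.33%) were also in the top 8% for Syngr1, Pmp22 and Lgmn, against 17.9% of the other C1qa-positive barcodes. For Lyve1 and Cd163, genes of resident macrophages, the shares were 4.17% of members and 11.3% of the others. For the lipid-associated genes Mmp12, Lpl and Gpnmb they were 8.33% and 11.96%, for Ctla2a, Fxyd2 and S1pr1 11.6% and 16.8%, and for Ptges, Inhba and Il1a 3.70% and 6.52%. The members' shares thus lay on both sides of the 8% taken of all barcodes, and 54 of the 216 members lacked C1qa, which all of the others carry.

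Outside the score, members carried more transcripts of the antigen-presentation genes H2-Aa, H2-Ab1, H2-Eb1 and Cd74, and of Cx3cr1 and Spint1, than the other C1qa-positive barcodes. They carried less of Lyve1, Gas6 and 3 more genes of resident dermal macrophages, of the monocyte genes Ly6c2, Ifitm6 and Plac8 and of the chemokines Ccl6, Ccl8 and Cxcl3. UMIs were summed per library and population and compared with edgeR's quasi-likelihood test with the library as a block, adjusted by the Benjamini-Hochberg method over 8372 genes. Of these, 51 (0.609%) had an adjusted p under 0.05, 24 higher in members (0.287%) and 27 lower (0.323%). The test asks whether a difference is large beside its variation over 3 libraries of different days. The score genes were picked with results of these libraries known, so genes that accompany them are not independent evidence for the group. Without the library block edgeR called 0 genes in either direction, with 198 genes higher and 169 lower at an unadjusted p under 0.05, so every call rests on the pairing within libraries. DESeq2, with the block, called 28 genes higher and 27 lower, which include 23 of the 24 and 23 of the 27.

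Genes of major histocompatibility complex (MHC) class II, which present peptides to T cells, were called in part: H2-Aa, H2-Ab1, H2-Eb1 and Cd74, 4 of the 8 listed, rose in members, and the other 4 did not pass the test. The fitted changes of the 8 were all positive, with a median log2 of 1.09, against -0.01 over all genes tested. H2-Aa (chr17:34282744-34287823, minus strand) stood at 4244, 3978 and 2344 CPM in members at days 3, 6 and 10, against 1754, 1763 and 1194 CPM in the others. Every member value of H2-Aa lay above every value of the others. Its fitted log2 change was 1.15 ± 0.147 (SE; 3 libraries; edgeR adjusted p = 0.00969). H2-Eb1 (chr17:34305867-34316674, plus strand) stood at 4853, 3828 and 2192 CPM in members, against 1719, 1726 and 1136 CPM in the others, again without overlap, with a log2 change of 1.21 ± 0.156 (edgeR adjusted p = 0.00973). H2-Ab1 changed by 1.16 ± 0.161 and Cd74, the invariant chain that guides class II molecules to the endosome, by 1.03 ± 0.143 on the log2 scale (edgeR adjusted p = 0.0134 for both). At day 3, 1 member barcode held 38.0% of the Cd74 UMIs. Without the day 3 library, 6 of the 8 genes were called higher, with a median of 0.87, where 2.92% of all genes were. All 4 kept the call when members were restricted to those with a C1qa UMI, where 0.261% of all genes were called higher. The edgeR adjusted p ran from 0.0243 for H2-Aa to 0.0439 for H2-Eb1. At day 3 that restriction left 5 members, with class II at 41612 CPM, against 19430 CPM at day 6 and 10886 CPM at day 10. With day 3 also left out, a fit chosen after seeing the data, the changes were smaller. They were 0.85 for H2-Aa, 0.77 for H2-Ab1, 0.74 for H2-Eb1 and 0.72 for Cd74 (edgeR adjusted p from 0.00862 to 0.0343). Summed over the list, class II transcripts stood at 14841 CPM in members with C1qa and 24822 CPM in members without it, against 9016 CPM in the other C1qa-positive barcodes and 30474 CPM in kept barcodes outside with no C1qa UMI. The part of such C1qa-negative, class II-rich cells in the difference was not tested beyond that restriction.

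The class II promoters are shown because H2-Aa and H2-Eb1 rose and class II genes are known for a shared control element, the Y box, an inverted CCAAT motif bound by NF-Y. RefSeq promoter windows of GRCm38.p6, 250 bases before to 50 after the start, were at hand for 5 of the 8 genes. The letters TGATTGG, searched on both strands, occurred in 4 of the 5: 50 bases before the start in H2-Aa, 61 in H2-Eb1, 63 in H2-DMb1 and 92 in H2-DMb2. The same letters occurred in 7.82% of all 32851 promoters in the table. The windows of the 2 genes with an edgeR call are chr17:34287774-34288073 (minus strand) and chr17:34305617-34305916 (plus strand), printed 5′ to 3′ with the match in capitals. A match describes the sequence and says nothing of use in these cells.
H2-Aa: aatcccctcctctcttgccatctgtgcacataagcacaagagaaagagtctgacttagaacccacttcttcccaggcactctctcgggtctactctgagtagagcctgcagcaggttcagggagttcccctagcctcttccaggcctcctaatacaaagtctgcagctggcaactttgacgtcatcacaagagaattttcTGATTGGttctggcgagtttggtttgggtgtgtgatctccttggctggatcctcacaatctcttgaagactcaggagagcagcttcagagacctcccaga
H2-Eb1: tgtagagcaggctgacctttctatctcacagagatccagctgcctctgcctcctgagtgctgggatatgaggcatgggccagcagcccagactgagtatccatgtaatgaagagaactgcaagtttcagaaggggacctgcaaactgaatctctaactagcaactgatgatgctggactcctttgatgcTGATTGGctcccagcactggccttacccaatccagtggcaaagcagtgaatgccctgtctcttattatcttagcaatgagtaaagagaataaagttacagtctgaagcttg

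**Figure D3:**
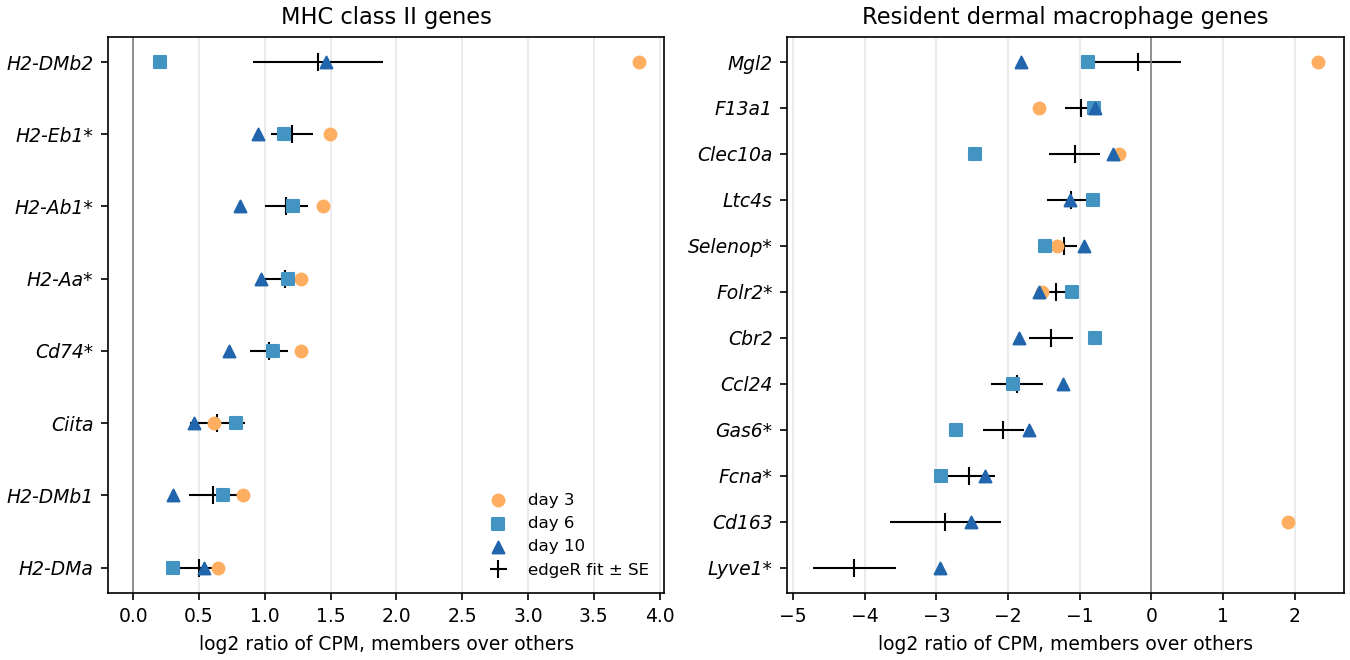
Log2 ratio of CPM, members over other C1qa-positive barcodes, for 8 MHC class II genes (left) and 12 resident dermal macrophage genes (right) in each library, with the edgeR fit ± SE; an asterisk marks an edgeR adjusted p under 0.05 and a library with under 3 UMIs in either population has no point. The class II fits all lie right of 0 and the resident fits left of it, with H2-Aa at 1.15 and Lyve1 at -4.15.

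Genes of resident dermal macrophages were lower in members. Of 12 tested, 5 fell and none rose, and the fitted median was -1.37 on the log2 scale. Lyve1, the hyaluronan receptor of perivascular macrophages, had 0, 0 and 4 UMIs in members at days 3, 6 and 10, against 25, 192 and 122 UMIs in the others (log2 change -4.15 ± 0.582, edgeR adjusted p = 0.0138). Gas6, the ligand of Axl, had 6.85, 22.6 and 27.5 CPM in members, against 20.2, 149 and 89.6 CPM in the others. Its day 3 value in members was 1 UMI, and the counting interval of the day 3 ratio (0.00833 to 2.01) included 1. Gas6 was lower in members at days 6 and 10, and the fit over 3 libraries gave -2.07 ± 0.287 on the log2 scale (edgeR adjusted p = 0.0134). The groups overlapped across days. Folr2, a folate receptor, fell by 1.33 and Selenop, a secreted selenoprotein, by 1.23 (edgeR adjusted p = 0.0235 and 0.0196), and Fcna fell as well. With members restricted to those with C1qa, where 0.36% of all genes were called lower, Lyve1, Gas6 and Fcna kept the call, and Ccl24 and Clec10a, which had not passed before, were called lower. Folr2 missed the threshold there at a similar size (log2 change -1.18, edgeR adjusted p = 0.0656) and Selenop at -0.81 (0.235). With day 3 also left out, a fit chosen after seeing the data, Folr2 and Selenop were called lower (edgeR adjusted p = 0.00616 and 0.00495). Without the day 3 library all 12 tested genes were called lower, with a median of -1.31, where 2.53% of all genes were. Mrc1, the mannose receptor, at 144, 282 and 229 CPM in members, against 391, 645 and 493 CPM in the others, was called at an edgeR adjusted p of 0.022 and missed the threshold in members with C1qa (log2 change -0.92, edgeR adjusted p = 0.147). With day 3 also left out, Mrc1 was called in those members (-0.90, edgeR adjusted p = 0.00495).

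Of the receptors related to Axl, Mertk, which binds the same bridging ligands, did not pass the test: it stood at 13.7, 104 and 31.96 CPM in members, against 34.1, 104 and 62.7 CPM in the others (log2 change -0.49 ± 0.272, edgeR adjusted p = 0.72). Tyro3, the third of these receptors, was at 0 UMIs in members. None of 15 tested genes of dead cell uptake passed in either direction, with a median of -0.10. Among 6 tested genes of platelet-derived and vascular endothelial growth factors and receptors outside the score, Nrp1 alone was called, at 41.1, 46.7 and 37.2 CPM in members, against 68.3, 134 and 83.2 CPM in the others (log2 change -1.21 ± 0.223, edgeR adjusted p = 0.0498). Nrp1 encodes a co-receptor of vascular endothelial growth factor.

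Of 12 tested genes known from microglia, only Cx3cr1, the fractalkine receptor, rose in the fit over 3 libraries, where 0.287% of all genes did. Without the day 3 library, 5 of the 12 were called higher and none lower, where 2.92% of all genes were called higher. In members with C1qa, 2 were called higher and none lower, where 0.261% of all genes were called higher. Cx3cr1 (chr9:119901616-120069879, minus strand) stood at 240, 157 and 214 CPM in members, against 55.5, 88.5 and 79.1 CPM in the others. The ranges did not overlap, and the fitted log2 change was 1.41 ± 0.233 (edgeR adjusted p = 0.0281; 0.00765 in members with C1qa). Tgfbr1, the type I receptor of transforming growth factor beta, stood at 75.3, 176 and 102 CPM in members, against 16.2, 59.1 and 58.8 CPM in the others, and missed the threshold (log2 change 1.36 ± 0.253, edgeR adjusted p = 0.0544). It passed among members with C1qa (edgeR adjusted p = 0.0123). The microglial regulator Sall1 was at 0 UMIs in members.

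Among the genes named by size, Spint1 and Pxdc1 had the largest fitted increase. Spint1 (chr2:119237362-119249527, plus strand), which encodes a membrane inhibitor of serine proteases, stood at 75.3, 107 and 34.9 CPM in members, against 16.2, 20.05 and 6.40 CPM in the others, with no overlap (log2 change 2.41 ± 0.212, edgeR adjusted p = 0.00124). Its UMIs came from 3, 15 and 17 member barcodes, so most members had none. Pxdc1 stood at 6.85, 115 and 37.2 CPM in members, against 5.21, 12.4 and 10.9 CPM in the others (log2 change 2.42 ± 0.347, edgeR adjusted p = 0.0144), and its day 3 value in members was 1 UMI. Plau, the urokinase-type plasminogen activator, stood at 27.4, 127 and 45.3 CPM in members, against 17.4, 28.1 and 14.1 CPM in the others (log2 change 1.82 ± 0.259, edgeR adjusted p = 0.0139). Plau was higher in each library, while its day 3 value in members lay inside the range of the others.

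Cd72, an inhibitory lectin-like receptor best known from B cells, stood at 171, 273 and 75.8 CPM in members, against 45.1, 63.8 and 37.7 CPM in the others (log2 change 1.67 ± 0.243, edgeR adjusted p = 0.0149). Gpr183, a receptor for oxysterols that guides immune cell positioning, stood at 123, 142 and 94.4 CPM in members, against 30.1, 45.1 and 36.7 CPM in the others (log2 change 1.64 ± 0.206, edgeR adjusted p = 0.00899). For both, each member value was above each value of the others. Hivep3 and Fam46c, a zinc finger protein and a poly(A) polymerase, each rose by 1.34 on the log2 scale. All 7 of these genes from Spint1 to Fam46c kept an adjusted p under 0.05 in members with C1qa.

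The other 4 named increases belonged to survival and tumour necrosis factor signalling or to transcription, and lost the call in members with C1qa. Their fitted changes there were also smaller, at 0.54 for Traf1, 0.71 for Etv3, 0.83 for Bcl2a1a and 0.61 for Bcl2a1d. That restriction left 5 members at day 3. With day 3 also left out, a fit chosen after seeing the data, Traf1 (0.69) and Bcl2a1d (0.90) were called (edgeR adjusted p = 0.0333 and 0.0266). Etv3 (0.81) and Bcl2a1a (0.75) were not (edgeR adjusted p = 0.0776 and 0.123). Traf1, an adaptor of tumour necrosis factor receptors, stood at 554, 250 and 204 CPM in members, against 183, 91.2 and 112 CPM in the others (log2 change 1.30 ± 0.198, edgeR adjusted p = 0.0192; 0.645 with C1qa-positive members). Etv3, a transcriptional repressor, rose by 1.35 (edgeR adjusted p = 0.0498; 0.403). The anti-apoptotic Bcl2a1a rose by 1.58 (0.0498; 0.205) and Bcl2a1d by 1.31 (0.0172; 0.733), in edgeR adjusted p over the same pair of fits. These are near-identical copies, so the split of UMIs between them is uncertain. At day 3 the member barcode with most UMIs of the gene held 72.9% of them for Etv3, 61.8% for Bcl2a1d and 37.5% for Bcl2a1a.

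Il4i1 and Ccl22, genes that mature dendritic cells express, had the largest fitted increases of all calls, but rest on few barcodes. Il4i1, an enzyme that degrades phenylalanine, had 28, 59 and 16 UMIs in members, against 2, 3 and 2 UMIs in the others, and these came from 3, 2 and 4 member barcodes. Ccl22, a chemokine, had 25, 56 and 66 UMIs in members, against 0, 18 and 22 UMIs in the others, from 3, 3 and 4 member barcodes. Nearly all lay in members without C1qa, which had 100 Il4i1 UMIs and 146 Ccl22 UMIs, against 3 and 1 in members with it. The same split held for Ccr7, with 205 UMIs in members without C1qa and 5 in members with it, and for the actin-bundling gene Fscn1, with 70 and 1.

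**Figure D4:**
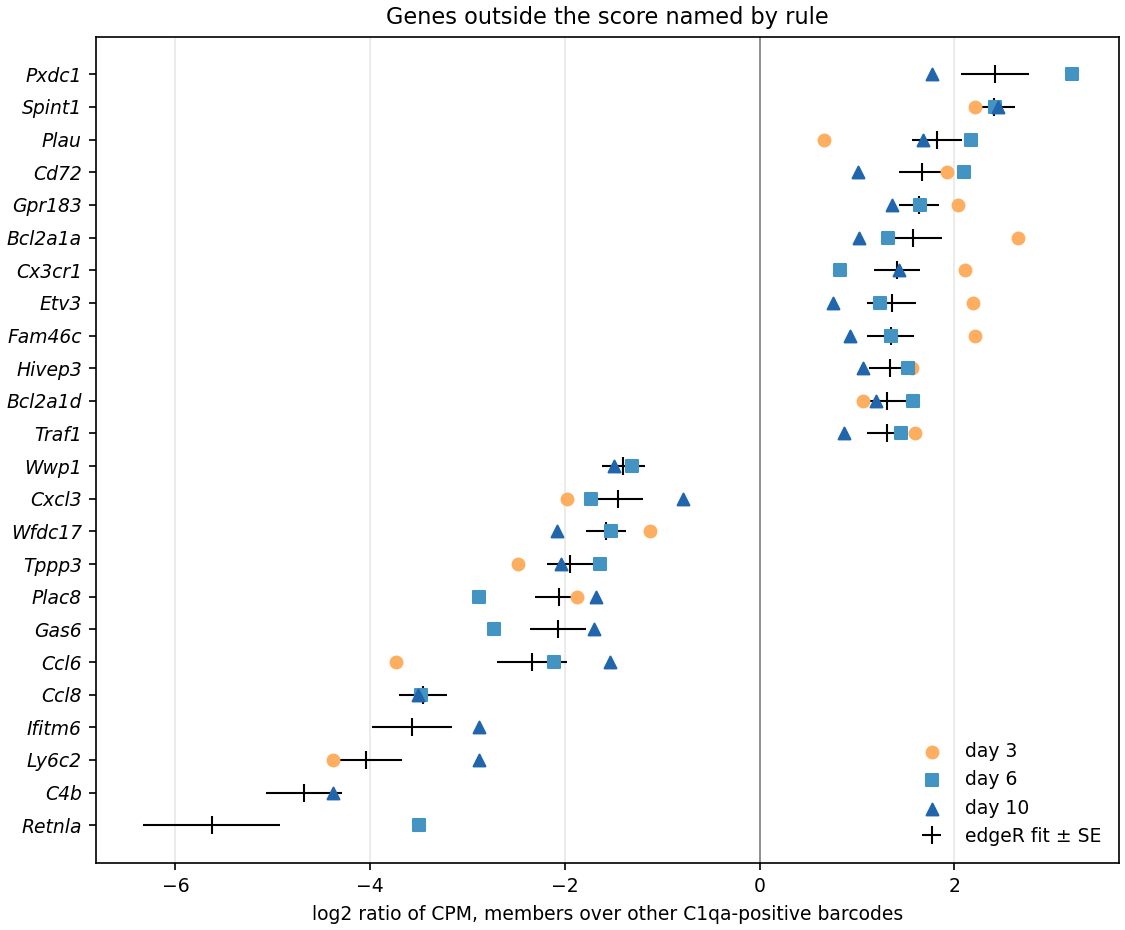
Log2 ratio of CPM, members over other C1qa-positive barcodes, per library for the 24 genes named by size, with the edgeR fit ± SE; a library with under 3 UMIs in either population has no point. Spint1 lies close to its fit of 2.41 in all 3 libraries, while Retnla, fitted at -5.63, has a plottable ratio at day 6 alone.

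Of 12 tested classical monocyte genes, Ly6c2, Ifitm6 and Plac8 fell in members and none rose, with a fitted median of -0.64. Without the day 3 library, 5 were called lower and 1 higher, where 2.53% and 2.92% of all genes were. In members with C1qa, 3 were called lower and none higher, where 0.36% and 0.261% of all genes were. The list as a whole did not go 1 way: its summed level was 4121, 2175 and 3004 CPM in members at days 3, 6 and 10, against 9996, 2713 and 2329 CPM in the others, so members held more at day 10. Ly6c2, the gene of the inflammatory monocyte antigen, stood at 34.2, 1.51 and 2.23 CPM in members, against 713, 40.4 and 16.4 CPM in the others (log2 change -4.04 ± 0.367, edgeR adjusted p = 0.00137). Ifitm6, an interferon-induced membrane protein gene of monocytes, had 1, 1 and 6 UMIs in members, against 445, 61 and 175 UMIs in the others (log2 change -3.57 ± 0.411, edgeR adjusted p = 0.00648). Both genes were lower in members in all 3 libraries. Plac8 stood at 581.8, 19.6 and 25.3 CPM in members, against 2140, 144 and 81.0 CPM in the others (log2 change -2.07 ± 0.243, edgeR adjusted p = 0.00656). The others include barcodes with monocyte transcripts: at day 3, 78 of the 168 held at least 3 Ly6c2 UMIs. The part of such barcodes in the monocyte gene difference was not tested. Without the day 3 library, which held most of these UMIs in the others, the fitted changes were -3.54 for Ly6c2, -3.00 for Ifitm6 and -2.11 for Plac8. In members with C1qa they were -4.34, -3.65 and -3.87 (edgeR adjusted p = 0.000751, 0.00135 and 0.000465). Plac8 turned direction when members were chosen after thinning, to a log2 change of 0.15.

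Of 16 tested chemokine genes 3 fell and none rose, where 0.323% of all genes fell. Without the day 3 library, 9 were called lower and 3 higher, where 2.53% and 2.92% of all genes were. In members with C1qa, 5 were called lower and 1 higher, where 0.36% and 0.261% of all genes were. Ccl8, a monocyte attractant, had 0, 34.7 and 20.8 CPM in members, against 14.5, 387 and 237 CPM in the others (log2 change -3.46 ± 0.248, edgeR adjusted p = 0.000488). Its UMIs were found in 16.9% of the others at day 6 and 11.9% at day 10, against 9.80% and 4.03% of members. In the others, 1 barcode held 23.9% of them at day 6 and 1 held 19.0% at day 10. Ccl6 stood at 199, 326 and 238 CPM in members, against 2638, 1412 and 692 CPM in the others, with no overlap (log2 change -2.34 ± 0.359, edgeR adjusted p = 0.0196). Cxcl3, a neutrophil attractant, fell by 1.45 (edgeR adjusted p = 0.0399). Neither Ccl6 nor Ccl8 lost its call in members with C1qa, and without day 3 their changes were -1.78 and -3.46.

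Alternative activation genes did not move as 1 group, with 3 of 15 lower and Ccl22 higher. Without the day 3 library, 7 were called lower and 1 higher, where 2.53% and 2.92% of all genes were. In members with C1qa, 2 were called lower and none higher, where 0.36% and 0.261% of all genes were. Retnla, a secreted protein of alternatively activated macrophages, had 0, 11 and 2 UMIs in members, against 120, 561 and 2889 UMIs in the others (log2 change -5.63 ± 0.706, edgeR adjusted p = 0.00899). In the others at day 10, 1 barcode held 63.3% of the Retnla UMIs. Arg1, arginase 1, stood at 438, 716 and 2518 CPM in members, against 1182, 1574 and 4364 CPM in the others. It was lower in members in each library (log2 change -1.09 ± 0.182, edgeR adjusted p = 0.029), and missed the threshold in members with C1qa at a larger fitted change (-1.52, edgeR adjusted p = 0.135). With day 3 also left out, a fit chosen after seeing the data, Arg1 was called in those members (-0.88, edgeR adjusted p = 0.0126). The complement gene C4b fell by 4.68, Tppp3 by 1.95, Wfdc17 by 1.58 and the ubiquitin ligase gene Wwp1 by 1.40 on the log2 scale, each with an edgeR adjusted p under 0.05 also in members with C1qa. In the others at day 6, C4b was found in 25 barcodes (10.0%), and 1 of them held 21.1% of its UMIs.

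Many lists had no call in either direction by edgeR, beside the 0.609% of all genes called. Their median log2 changes were -0.15 for type I interferon response (18 genes tested), -0.00 for hypoxia response (14), -0.11 for glycolysis (15), -0.27 for lysosome (23) and -0.22 for lipid handling (20). Integrins (12 genes tested) had a median of 0.52, junction proteins (6) 0.39, S phase genes (11) 0.21, osteoclast and cell fusion genes (7) 0.16 and TGF-beta signalling (15) 0.05. Growth factors outside the families above (11) had a median of -0.16, immediate early and dissociation-linked genes (18) -0.08, macrophage transcription factors (21) -0.02 and G2 and M phase genes (3) -1.63. Without the day 3 library, where 2.92% of all genes were called higher and 2.53% lower, several of these lists did hold calls: 10 of the 20 lipid handling genes and 7 of the 23 lysosome genes were lower in members, and 6 of the 18 immediate early genes and 5 of the 12 integrins were higher. In members with C1qa, 1 lipid handling gene was called lower and no lysosome, integrin or immediate early gene was called.

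Between day 6 and day 10 the members' sums differed in genes of the hypoxia, antioxidant and type I interferon response lists, and in single genes such as Arg1 and Hspa1a. With 1 library a day there is no test: a gene was counted when its CPM ratio was at least 2-fold with an exact binomial counting interval leaving out 1, which says nothing of the spread between mice. Of 7317 genes measured in members, 181 were higher at day 10 (2.47%) and 339 lower (4.63%). In the other C1qa-positive barcodes the shares were 2.35% and 4.29% of 10133 genes. Scaling by TMM factors moved all log2 ratios of members up by 0.12, which gave 267 genes higher and 240 lower, so the split between higher and lower depends on the scaling.

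Of 14 hypoxia response genes, 8 were higher at day 10 in members and none lower, with a median log2 ratio of 1.12, against -0.07 over all genes. Egln3, an oxygen-sensing prolyl hydroxylase induced in low oxygen, stood at 150 CPM at day 10 against 25.6 CPM at day 6 in members, a ratio of 5.86 (3.57 to 10.3). Its UMIs came from 75 member barcodes at day 10 and 12 at day 6. Slc2a1, the glucose transporter GLUT1, stood at 250 CPM at day 10 against 102 CPM at day 6 (ratio 2.44, 1.88 to 3.22), and Bnip3, a mitophagy receptor, at 411 against 161 CPM (2.55, 2.07 to 3.17). Vegfa, by contrast, stood at 699 CPM at day 10 against 648 CPM at day 6 (1.08, 0.962 to 1.21). The others shared the pattern, with 6 of the 14 genes higher and Egln3 at 165 CPM at day 10 against 25.1 CPM at day 6.

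Of 18 type I interferon response genes, 9 were lower at day 10 in members and none higher, with a median of -1.08. In the others all 18 were lower, with a median of -1.96. Rsad2, the antiviral enzyme viperin, stood at 35.7 CPM at day 10 against 134 CPM at day 6 in members (3.76-fold lower, 2.62 to 5.46), and at 26.7 against 182 CPM in the others (6.81-fold lower). Isg15, a ubiquitin-like modifier, stood at 78.8 CPM at day 10 against 203 CPM at day 6 in members (2.58-fold lower, 1.99 to 3.36), and at 38.8 against 196 CPM in the others (5.06-fold lower). Whether members and others differ in this change was not tested.

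**Figure D5:**
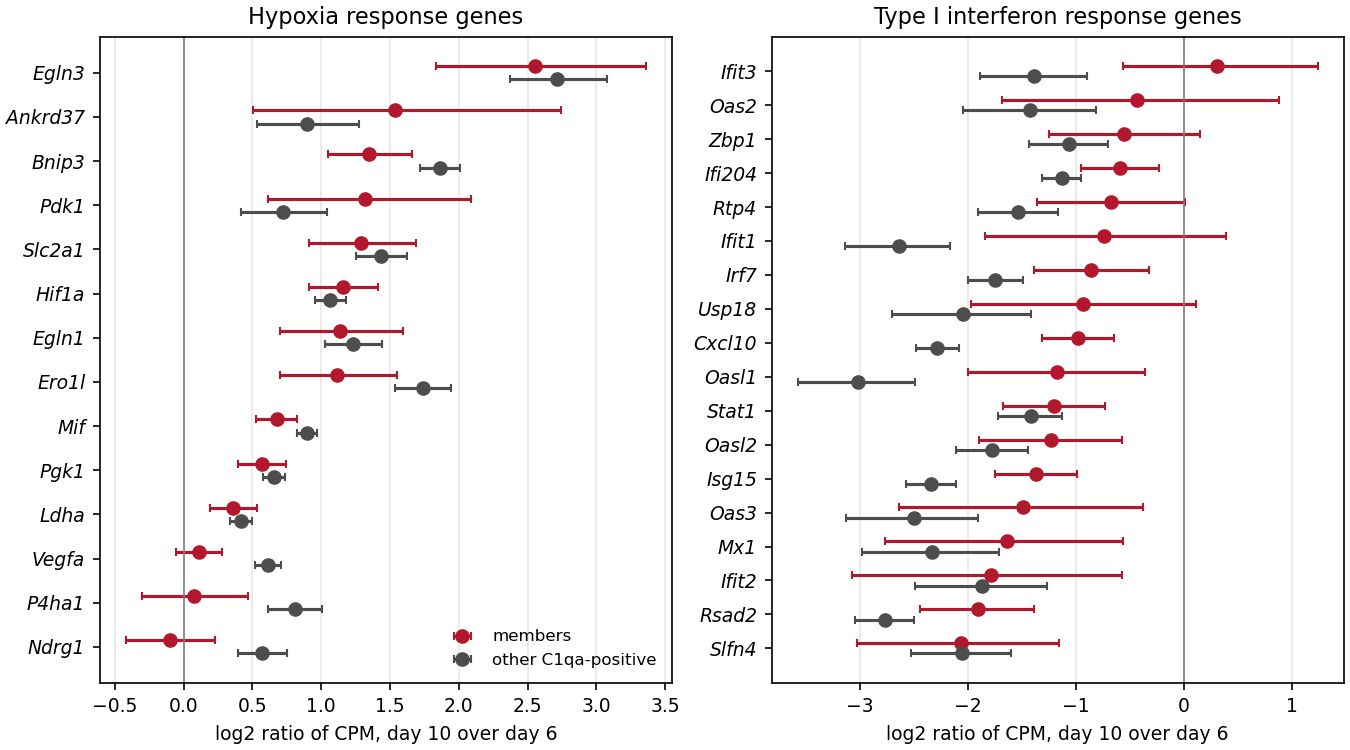
Log2 ratio of CPM, day 10 over day 6, with counting 95% intervals, for hypoxia response genes (left) and type I interferon response genes (right) in members (red) and other C1qa-positive barcodes (grey). Most hypoxia ratios lie right of 0 in both populations (member median 1.12) and most interferon ratios left of it (member median -1.08).

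Of the genes named by size as higher at day 10, Arg1 stood at 2518 CPM at day 10 against 716 CPM at day 6 in members (ratio 3.52, 3.19 to 3.88), and at 4364 against 1574 CPM in the others. Haptoglobin, Hp, had a ratio of 7.33 (4.27 to 13.6), Sox4 one of 4.21 (2.61 to 7.17), Saa3 one of 4.19 (2.63 to 7.04) and Eif4ebp1 one of 3.17 (2.31 to 4.44) in members. In the others the ratios were 1.33 for Hp, 4.02 for Sox4, 3.47 for Saa3 and 2.30 for Eif4ebp1. Without the member barcode with most of its UMIs, Hp had a ratio of 4.43 (2.54 to 8.33) in members and Saa3 one of 2.04 (1.24 to 3.52). Ifitm1 stood at 815 CPM at day 10 against 66.3 CPM at day 6, with 44.1% of its day 10 UMIs in 1 barcode, and the ratio of 12.3 became 6.99 without that barcode. With members chosen after thinning, Ifitm1 turned direction, to a log2 ratio of -0.32. Of 12 listed antioxidant response genes, 5 were higher at day 10 in members and none lower, with a median of 0.51. In the others 2 were higher and none lower, with a median of 0.49. Mt1 and Mt2, which encode metal-binding metallothioneins, had ratios of 2.22 (2.01 to 2.45) and 2.62 (2.07 to 3.36) in members, and Hmox1, heme oxygenase 1, one of 2.19 (1.93 to 2.49).

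The genes named by size as lower at day 10 included Hspa1a, Hspa1b, Hsph1 and Bag3. Hspa1a stood at 419 CPM at day 10 against 2040 CPM at day 6 in members (4.87-fold lower, 4.41 to 5.38) and Hspa1b, its near-identical copy, at 372 against 1997 CPM (5.36-fold lower). Both code for the inducible HSP70 chaperone. Of 18 immediate early and dissociation-linked genes, 3 were lower at day 10 in members and none higher. The co-chaperones Hsph1 and Bag3 were 10.4-fold (7.19 to 15.5) and 6.19-fold (4.26 to 9.18) lower, and Bag3 was 3.85-fold lower without 1 day 6 barcode. Hspa1a was lower at day 10 in the others too, at 328 CPM against 1319 CPM at day 6. Tsc22d3, a glucocorticoid-induced gene, was 6.01-fold lower in members (4.39 to 8.34), Tbc1d4 5.53-fold (3.67 to 8.51; 3.26-fold without 1 barcode) and Gatm, which makes the creatine precursor, 4.92-fold (3.13 to 7.94). Areg, the growth factor amphiregulin, had 5 UMIs at day 10 against 166 at day 6, of which 88 sat in 1 of 6 barcodes, and was 32.4-fold lower without that barcode and 67.3-fold lower with it.

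Genes that set members apart also differed between the days. Cd72 stood at 75.8 CPM at day 10 against 273 CPM at day 6 in members (3.60-fold lower, 2.81 to 4.63), Spint1 was 3.06-fold (2.09 to 4.53), Pxdc1 3.08-fold (2.13 to 4.50) and Plau 2.79-fold (1.98 to 3.95) lower. In the others Cd72 stood at 37.7 CPM at day 10 against 63.8 CPM at day 6, and Spint1 at 6.40 against 20.05 CPM. Plau stood there at 14.1 against 28.1 CPM and Pxdc1 at 10.9 against 12.4 CPM. Cx3cr1 stood at 214 CPM at day 10 against 157 CPM at day 6 in members (ratio 1.37, 1.09 to 1.73), and at 79.1 against 88.5 CPM in the others. Of the 8 class II genes, H2-DMb1 alone was counted as lower at day 10 in members, with H2-Aa at a ratio of 0.589 (0.559 to 0.621). In the others H2-Aa had a ratio of 0.677 (0.653 to 0.703).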

How the data were processed

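Single-cell libraries were made on the 10x Chromium platform from enzymatically digested wounds, with 2 mice pooled per day, per the labels. The authors deposited UMI counts for 31053 genes, made with Cell Ranger 3.0.2 against mm10, per the submitters' processing notes; the annotation release and the sorting gates are not given in the sources used here. Of 1472, 1196 and 2209 deposited barcodes at days 3, 6 and 10, 879, 551 and 1272 passed the filters. Doublets were scored per library with Scrublet in scanpy 1.11.5 and kept. Coordinates come from GENCODE vM21 (GRCm38, the assembly of mm10), promoters from RefSeq.

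UMIs were summed per library and population and tested with edgeR 4.0.16 (TMM, filterByExpr, quasi-likelihood test, Benjamini-Hochberg adjustment), with the library as a block because both sums of a library come from the same mice. The 6 score genes and C1qa were not tested. The steps were tested on simulated data. DESeq2 1.42.0 was an alternative. The labels name no separate samples within a day. With the block, p-values rest on how the difference between members and others varies over 3 libraries of different days. With so few libraries, that spread also draws on what edgeR shares across genes, so it is not measured for each gene alone. Day ratios use CPM with exact conditional binomial intervals, for genes with at least 20 UMIs; under 3 UMIs was set to 3. Thinning drew 2000 UMIs per barcode.

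Genes were named by size: 12 in each direction by fitted change among calls with 1 direction in all libraries and at least 50 CPM in either population, and 8 in each direction by day ratio at 100 CPM or more; mitochondrial and ribosomal protein genes, gene models and markers of other classes were left out, and members of the gene lists could be named too. Il4i1 and Ccl22 were named after their values were seen. The members, lists and rules were chosen with earlier results of these data known.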

Additional observations from a re-analysis of the deposited data

Results flagged for a closer look

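Ccl5, a T cell-attracting chemokine, moved in opposite directions in the 2 populations: its CPM ratio of day 10 over day 6 was 13.9 in members and 0.0487 in the other C1qa-positive barcodes, and this difference was not tested. It stood at 209 CPM at day 10 against 15.1 CPM at day 6 in members, and at 1.32 against 27.1 CPM in the others. In members, 277 of the 281 Ccl5 UMIs at day 10 sat in 1 barcode. Without that barcode the ratio in members was 0.199 (counting interval 0.0456 to 0.691), the direction of the others.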

How the results depend on the processing

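Beside the 24 genes higher and 27 lower by edgeR, no replicate block (no pairing within libraries) gave 0 and 0, the top 5% of barcodes 4 and 11, no filter on low counts 142 and 130, and members with C1qa without day 3 (chosen after seeing the data) 95 and 90. Leaving out 1 library gave 28 to 266 higher and 21 to 230 lower, the most without day 3 and 69 and 50 without day 10; without day 3 the test kept 23 of the 24 and 27 of the 27, without day 6 12 and 15. With 2 libraries left, the spread rests mostly on what edgeR shares across genes. Against others with at least 3 C1qa UMIs, 38 calls stayed and 11 weakened. Thinning before scoring turned Plac8 to 0.15 and the day ratio of Ifitm1 to -0.32 (log2), and weakened 23 of 51 calls; without its top barcode the Ccl5 day ratio became -2.33. The cause of these changes was not tested. Shares of members moved to 14.3% at day 6 and 17.5% at day 10 with the top 12%, to 6.37% at day 10 with the top 5% and to 9.83% at day 10 after thinning. At 100 UMIs or more, 45 genes were higher and 79 lower at day 10. With a gene left out of the score its ratio was 1.82 for Axl, 2.05 for Pdgfb, 1.88 for Tmem119, 2.55 for F11r, 2.14 for Zmynd15 and 1.47 for Pdgfa. At 16 members, day 3 limits every value that draws on it.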

Other observations

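Hemoglobin transcripts in members came almost wholly from 1 barcode: at day 6 it held 2094 of the Hbb-bs UMIs (99.9%), and 3 member barcodes had any. In the other C1qa-positive barcodes at day 6, 6 barcodes had Hbb-bs UMIs and 1 held 43.3% of them. Summed platelet and erythroid markers stood at 1273, 8501 and 2458 CPM in members at days 3, 6 and 10, against 1292, 5873 and 5020 CPM in the others.

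Few cell cycle transcripts were found. Of 16 genes of the G2 and M phases, 3 could be tested and none passed by edgeR, and their summed level was 13.7, 37.7 and 40.9 CPM in members, against 25.5, 300 and 103 CPM in the others. The S phase list gave 294, 354 and 210 CPM in members, against 145, 269 and 266 CPM in the others, with none of 11 tested genes called.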
